A study of Mus musculus with 192 samples.

Results

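De novo lipogenesis is the synthesis of fatty acids from carbohydrate carbon. Its mRNAs were measured across the tissues of mice that had travelled to the International Space Station and of mice kept on the ground. The 10 genes described here were chosen by symbol and comprise Acly, Acaca, Acacb, Fasn, Elovl6, Scd1, Srebf1, Mlxipl, Thrsp and Pnpla3, out of 54752 genes listed in the expression tables. Male mice, given as C57BL/6 and 12 weeks old in the labels and as C57BL/6J in the study's methods, were either wild type (WT) or carried a whole-body knockout of Nrf2 (Nrf2-KO, allele Nfe2l2tm1Ymk). Before launch, the Nrf2-KO mice alone had been given ketamine and xylazine and selected by their recovery for the absence of an intrahepatic shunt, so that this treatment and selection cannot be told apart from the genotype. The flight mice (FL_WT and FL_KO, 6 of each launched) lived singly in habitat cage units in orbit for about a month and were dissected in the United States 2 days after splashdown, following behavioural tests. The ground control mice (GC_WT and GC_KO, 6 of each) lived in the same type of cage unit in Japan later in the year. The methods give 12 weeks as the age of the flight mice before launch, so that they were older at dissection. Flight mice were changed to flight food before launch. The methods give the ground mice the feed that the flight mice had eaten before this change. They do not say how flight food differed from it. Flight, transport, site, date of dissection and food therefore cannot be told apart. RNA-seq was available for 9 tissues, namely kidney (Kid), liver (Liv), brown fat from between the shoulder blades (iBAT), white fat around the epididymis (eWAT), spleen (Spl), thymus (Thy), temporal bone (TpB), mandible bone (MdB) and cerebrum (Cbr). A single FL_KO animal, flight mouse 04, had an intestinal haemorrhage and was left out. This left 5 FL_KO mice in most tissues, while kidney and MdB held 3 mice a group and 2 FL_KO mice in MdB.

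ATP citrate lyase (Acly) splits citrate to give cytosolic acetyl-CoA, and the acetyl-CoA carboxylases (Acaca and Acacb) turn it into malonyl-CoA. Fatty acid synthase (Fasn) builds palmitate from malonyl-CoA with NADPH as the reductant. Elovl6 lengthens palmitate to stearate, and Scd1 introduces a double bond to give palmitoleate and oleate. The programme is switched on at the level of transcription by SREBP-1c, a product of Srebf1 that responds to insulin, and by ChREBP, the product of Mlxipl that responds to sugar phosphates. It is prominent in fed liver, white fat and cold-exposed or sugar-fed brown fat.

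Most of the 10 genes were called lower in flight mice than in ground mice in iBAT and eWAT of both genotypes and in liver of Nrf2-KO mice, and none was called higher in these tissues. In iBAT, 9 of 10 genes were lower in FL_WT mice and 10 of 10 in FL_KO mice, led by Acly (9.57-fold and 21.1-fold lower), against 10.3% and 16.6% of all genes tested that were called lower in the same comparisons. In eWAT, 8 of 10 were lower in FL_WT mice and 8 of 10 in FL_KO mice, led by Fasn (3.68-fold and 5.21-fold lower), against 6.33% and 3.86% of all genes. In liver, 3 of the 9 genes tested were lower in FL_WT mice and 7 of 9 in FL_KO mice, with Scd1 3.86-fold and 6.72-fold lower, against 1.91% and 2.02% of all genes. A gene was called where the edgeR quasi-likelihood test gave a Benjamini-Hochberg adjusted p below 0.05 over all genes tested in that tissue. The median log2 fold change of the genes was -1.55 in FL_WT and -2.07 in FL_KO iBAT, -0.95 and -0.99 in eWAT, and -0.60 and -1.17 in liver. The median over all genes tested lay between -0.01 and 0.04 in these 6 comparisons. These are bulk measurements, in which fewer cells of a type and less RNA per cell cannot be told apart.

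**Figure D1:**
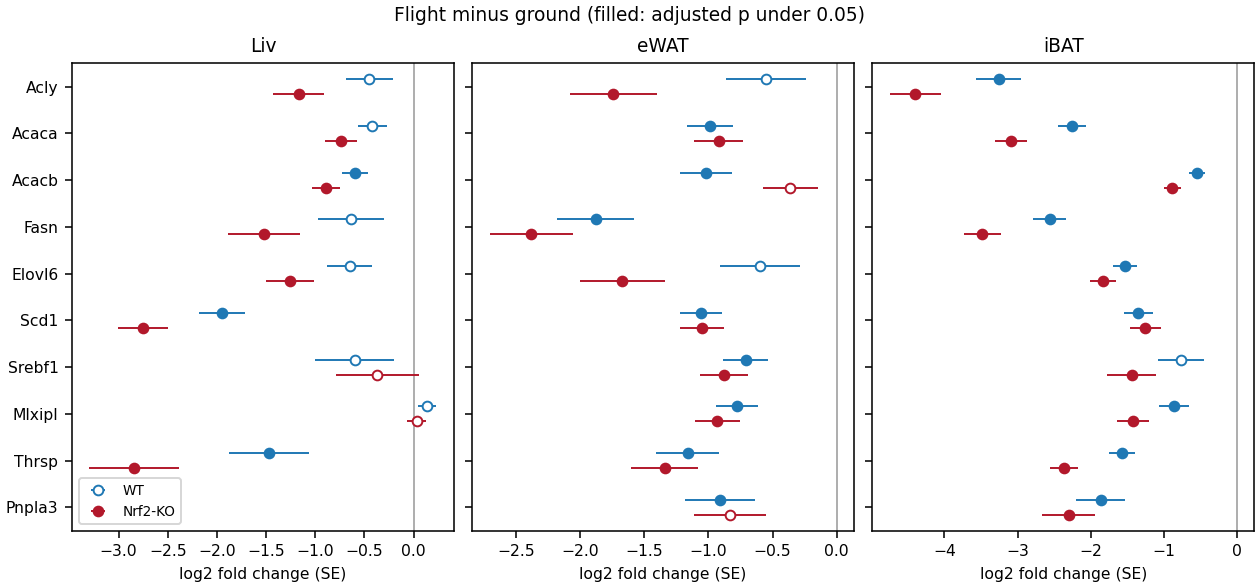
The log2 fold change of each gene (x axis, edgeR) in flight mice against ground mice of the same genotype, in iBAT, eWAT and liver, for WT and Nrf2-KO mice; the line through each point is the SE, and filled points passed the test. Points lie left of 0 throughout iBAT and eWAT, reaching -4.40 for Acly in FL_KO iBAT, and hepatic Mlxipl lies at 0.14 and 0.03.

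The genotype labels and the tissue identities were checked on the same libraries. Nfe2l2, the gene that encodes Nrf2, was lower in every Nrf2-KO mouse than in every WT mouse of the same tissue, for example 11.8 to 19.0 TPM against 34.6 to 57.1 TPM in iBAT. The smallest separation was in spleen (60.4 to 67.8 TPM against 73.1 to 86.7 TPM). Libraries held 12954949 to 16308175 assigned reads, except in thymus (8007523 to 10564704). Summed adipocyte markers stood at 44725 to 71130.2 TPM in eWAT, and brown adipocyte markers including Ucp1 at 4580.4 to 8538 TPM in iBAT, with groups that overlapped. Single markers in iBAT went both ways. Elovl3, on the brown adipocyte list, was called lower in flight in both genotypes. Adipoq was 646 to 785 TPM in FL_KO against 347 to 499 TPM in GC_KO mice. Plin1 was 619.8 to 727 TPM against 436 to 505 TPM there, and the WT groups overlapped for both. Skeletal muscle markers reached 7538 TPM in 1 FL_WT iBAT library (FL06) and 9063 TPM in 1 FL_KO iBAT library (FL11), against at most 74.8 TPM in any ground library. Of these markers 7 of 8 were called higher in flight in each genotype, and 9 and 10 lipogenesis genes were called lower without FL06 and FL11, respectively. Erythroid markers were called lower in flight for 5 of 5 tested in iBAT of both genotypes and for 4 of 5 in WT liver. Macrophage markers were called higher for 5 of 7 in FL_KO iBAT (14.2 to 34.0 TPM summed, against 6.92 to 12.0 TPM in GC_KO mice). The part of these markers in the results was not tested. The calls are relative to TMM scaling, since on the TPM scale the median gene was higher in flight iBAT by 0.31 (WT) and 0.43 (Nrf2-KO) on the log2 scale. Limma on that scale covered 8006 genes, those with a group mean of at least 5 TPM, and edgeR 13574. In WT mice limma called 4460 higher and 291 lower, where edgeR called 1201 higher and 1401 lower. In Nrf2-KO mice limma called 5230 higher and 435 lower, where edgeR called 2302 higher and 2250 lower. The test, the filter and the scale differ together between these counts, and their parts were not tested. On that scale (limma on log2(TPM + 1)) 7 lipogenesis genes were called lower in FL_WT iBAT and 10 in FL_KO iBAT, and the counts in eWAT (8 and 8) and liver (3 and 7) were as with edgeR.

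The split of calls over all genes also differed in liver between edgeR (13433 genes) and limma on the TPM scale (8349 genes). In WT mice it went from 206 higher and 257 lower to 552 higher and 101 lower. In Nrf2-KO mice it went from 176 higher and 272 lower to 1338 higher and 153 lower (median shift 0.15). In eWAT (15301 genes with edgeR, 10884 with limma) the split went from 1073 higher and 968 lower to 1823 higher and 460 lower in WT mice. In Nrf2-KO eWAT it went from 594 higher and 591 lower to 611 higher and 314 lower. All are the same flight comparisons.

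Promoter windows of 3 genes are shown. Acly led the falls in iBAT and Fasn those in eWAT, and Thrsp, like Scd1, was called lower in all 3 metabolic tissues of both genotypes. Each window is the 250 bases before the annotated start, 5′ to 3′ on the gene's strand, from the RefSeq annotation of GRCm38.p6. Capitals mark CCAAT (or its reverse complement ATTGG), the box bound by NF-Y, in Fasn and Thrsp, and GGGCGG (or CCGCCC), the GC box bound by Sp1-type factors, in Acly.
Acly, chr11:100528001-100528250, minus strand: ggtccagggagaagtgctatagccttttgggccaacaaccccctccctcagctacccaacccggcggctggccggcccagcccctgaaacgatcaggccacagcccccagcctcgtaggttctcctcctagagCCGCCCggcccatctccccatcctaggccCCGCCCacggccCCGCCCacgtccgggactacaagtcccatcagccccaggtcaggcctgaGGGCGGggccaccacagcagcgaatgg
Fasn, chr11:120824548-120824797, minus strand: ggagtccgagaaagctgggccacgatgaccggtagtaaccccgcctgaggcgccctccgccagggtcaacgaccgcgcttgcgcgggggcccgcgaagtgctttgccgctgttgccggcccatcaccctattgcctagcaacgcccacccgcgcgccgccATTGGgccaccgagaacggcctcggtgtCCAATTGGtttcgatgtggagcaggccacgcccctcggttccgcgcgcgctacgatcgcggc
Thrsp, chr7:97417551-97417800, minus strand: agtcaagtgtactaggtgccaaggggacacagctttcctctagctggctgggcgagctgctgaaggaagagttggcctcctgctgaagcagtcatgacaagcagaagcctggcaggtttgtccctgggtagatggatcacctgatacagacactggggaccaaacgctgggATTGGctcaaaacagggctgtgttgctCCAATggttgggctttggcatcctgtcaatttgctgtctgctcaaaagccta
The Fasn window held CCAAT 3 times on either strand, 2 of them overlapping, the Thrsp window held it 2 times, and the Acly window held 4 GC boxes. In the GENCODE annotation Thrsp reaches to base 97417730, so that part of its window, with both marked boxes, lies inside that gene.

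A promoter entry was matched for 9 of the 10 genes (all but Scd1), with 12 windows in all, since Srebf1 and Mlxipl have more than 1 annotated start. CCAAT stood in 7 of the 12 windows, from Fasn, Acacb, Srebf1, Mlxipl, Thrsp and Pnpla3, where 33.8% of all 32851 promoter windows of this length held it. The GC box stood in windows of Acly, Srebf1, Mlxipl and Pnpla3 (32.7% of all windows). TCACNCCAC, a sterol regulatory element, was found only for Mlxipl (1.05% of all windows), as was the E-box CACGTG (6.02% of all windows). TGACNNNGC, the core of the antioxidant response element bound by Nrf2, was in none of the 12 windows (10.2% of all windows). Both strands were searched, and a match is a description of the letters, not of binding.

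Acly, the gene that supplies acetyl-CoA to the pathway, gave the widest separation of flight and ground mice. In iBAT, Acly stood at 253 to 959 TPM (median 524) in GC_WT mice and at 44.6 to 109.9 TPM (median 54.1) in FL_WT mice, a 9.57-fold lower level (log2 fold change -3.26, SE 0.305, adjusted p = 2.72e-07). GC_KO mice held 712 to 1648 TPM (median 1064) and the FL_KO mice 53.2, 69.0, 75.5, 81.1 and 90.9 TPM, 21.1-fold lower (log2 fold change -4.40, SE 0.347, adjusted p = 6.06e-09). Every flight mouse was below every ground mouse of its genotype, and the FL_KO values lay inside the range of the FL_WT mice. Acly in eWAT overlapped between GC_WT mice (107 to 207 TPM, median 120.0) and FL_WT mice (63.0 to 149 TPM, median 94.6), and the difference did not pass the test (log2 fold change -0.55, SE 0.312, adjusted p = 0.276). In Nrf2-KO eWAT it fell 3.34-fold, from 111 to 584 TPM (median 264) to 74.3, 79.3, 84.3, 102 and 128 TPM (log2 fold change -1.74, SE 0.341, adjusted p = 0.00355), and the groups overlapped. Liver Acly was 40.7 to 117 TPM (median 56.8) in GC_WT and 36.9 to 60.7 TPM (median 46.3) in FL_WT mice (log2 fold change -0.45, SE 0.238, adjusted p = 0.357). Hepatic Acly of GC_KO mice, 63.9 to 171 TPM (median 105), was above that of 4 of the 5 FL_KO mice, which had 31.9, 33.0, 48.9, 57.0 and 89.0 TPM (log2 fold change -1.17, SE 0.255, adjusted p = 0.0107).

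The acetyl-CoA carboxylases carry out the committed step, Acaca in the cytosol and Acacb at the mitochondrial outer membrane, where its malonyl-CoA restrains fatty acid oxidation. Acaca in iBAT fell from 215 to 386 TPM (median 280.0) in GC_WT to 45.9 to 117 TPM (median 68.1) in FL_WT mice, 4.77-fold (log2 fold change -2.26, SE 0.192, adjusted p = 9.81e-08). In Nrf2-KO iBAT it fell 8.49-fold, from 384 to 512 TPM (median 424) to 52.7, 67.4, 68.1, 77.2 and 78.2 TPM (log2 fold change -3.09, SE 0.213, adjusted p = 1.1e-09). Neither pair of groups overlapped. Acacb moved less in the same tissue, with 231 to 359.5 TPM (median 269) in GC_WT and 159 to 283 TPM (median 248) in FL_WT mice (log2 fold change -0.55, SE 0.11, adjusted p = 0.00119). In Nrf2-KO iBAT it was 308 to 371 TPM (median 321) in GC_KO and 195, 224, 248, 254 and 278 TPM in FL_KO mice (log2 fold change -0.88, SE 0.117, adjusted p = 6.42e-06). The WT groups of Acacb overlapped and the Nrf2-KO groups did not. On the TPM scale the WT difference was -0.26 and did not pass (adjusted p = 0.0789, limma). In eWAT, Acaca was 125 to 218 TPM (median 153) in GC_WT and 76.4 to 114 TPM (median 79.9) in FL_WT mice (log2 fold change -0.99, adjusted p = 0.000786). It was 127 to 287 TPM (median 209) in GC_KO and 96.9, 102, 103, 112 and 126 TPM in FL_KO mice (log2 fold change -0.92, adjusted p = 0.00514). Every flight mouse was below its ground group in this depot. Acacb in eWAT was called lower in FL_WT mice (48.1 to 115 TPM, median 77.0 against 89.1 to 176 TPM, median 144, log2 fold change -1.02, adjusted p = 0.00173). In Nrf2-KO mice the values were 75.9, 89.97, 105, 119.6 and 133 TPM in flight and 108 to 156 TPM (median 137) on the ground (log2 fold change -0.36, SE 0.212, adjusted p = 0.318). Liver Acacb was called lower in both genotypes, at 10.5 to 16.8 TPM (median 14.1) in FL_WT against 15.0 to 24.1 TPM (median 19.9) in GC_WT mice (log2 fold change -0.60, adjusted p = 0.0129). The Nrf2-KO livers held 14.2, 15.97, 16.9, 22.9 and 23.4 TPM in FL_KO against 24.2 to 44.7 TPM (median 28.4) in GC_KO mice, without overlap (log2 fold change -0.89, adjusted p = 0.000638). Liver Acaca passed in Nrf2-KO mice (10.03, 10.1, 14.5, 17.96 and 23.6 TPM in flight, 19.3 to 28.8 TPM, median 20.5 on the ground, log2 fold change -0.74, adjusted p = 0.00937). In WT mice its log2 fold change was -0.42, adjusted p = 0.135 (16.3 to 27.5 TPM, median 19.4 and 11.4 to 19.3 TPM, median 16.2).

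Fasn, the synthase itself, was lower in flight mice in both fat depots of both genotypes without overlap. In iBAT, Fasn ran from 2028 to 4299.6 TPM (median 3001) in GC_WT mice to 355 to 1017 TPM (median 539.5) in FL_WT mice, 5.91-fold lower (log2 fold change -2.56, SE 0.23, adjusted p = 2.15e-07). GC_KO iBAT held 3932 to 5123 TPM (median 4095) and FL_KO iBAT 395, 448, 532, 573 and 626 TPM, 11.1-fold lower (log2 fold change -3.48, SE 0.257, adjusted p = 2.28e-09). In eWAT the order was the same at lower levels. Fasn there was 678 to 1444 TPM (median 965) in GC_WT and 173 to 441 TPM (median 262) in FL_WT mice (3.68-fold lower, log2 fold change -1.88, SE 0.299, adjusted p = 0.000232). It was 740.4 to 2633 TPM (median 1660.5) in GC_KO mice and 231, 254, 311, 377 and 416 TPM in FL_KO mice (5.21-fold lower, log2 fold change -2.38, SE 0.326, adjusted p = 0.000271). Liver differed from fat in that the groups overlapped. Hepatic Fasn was 43.0 to 109.9 TPM (median 61.7) in GC_WT and 32.3 to 74.0 TPM (median 38.8) in FL_WT mice, which did not pass the test (log2 fold change -0.64, SE 0.337, adjusted p = 0.358). In Nrf2-KO liver it was called 2.86-fold lower, with 57.5 to 203 TPM (median 140.5) in GC_KO and 23.3, 35.3, 42.8, 49.2 and 112 TPM in FL_KO mice (log2 fold change -1.52, SE 0.364, adjusted p = 0.0208). The highest FL_KO mouse, FL12, lay within the GC_KO range. The hepatic call was lost when FL01, FL02, FL09, FL11 or ground mouse GC11 was left out, with adjusted p up to 0.0658 and log2 fold changes from -1.48 to -1.34.

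Scd1 and Elovl6 act on the products of Fasn. Scd1, the stearoyl-CoA desaturase, was the most abundant of the 10 mRNAs in all 3 tissues in GC_WT mice. Reads that it shares with its closely related neighbours Scd2, Scd3 and Scd4 were divided by the counting program. In liver, Scd1 was 1249 to 2897 TPM (median 1684) in GC_WT and 340.3 to 629 TPM (median 475) in FL_WT mice, 3.86-fold lower (log2 fold change -1.95, SE 0.231, adjusted p = 3.99e-05). GC_KO liver held 961 to 2041 TPM (median 1329) and FL_KO liver 132, 200.3, 206, 254 and 433 TPM, 6.72-fold lower (log2 fold change -2.75, SE 0.256, adjusted p = 1.69e-06). Scd1 was the gene of the 10 whose hepatic level separated flight from ground in both genotypes, with every flight mouse below every ground mouse. In eWAT it fell by about the same factor in both genotypes, from 9091 to 12330.0 TPM (median 9994) to 3766 to 6285 TPM (median 5792) in WT mice (log2 fold change -1.06, SE 0.164, adjusted p = 0.000184). The eWAT of GC_KO mice had 11512 to 14760.2 TPM (median 13127) and that of FL_KO mice 3359.6, 6870.5, 6975, 7111 and 7543 TPM (log2 fold change -1.05, SE 0.174, adjusted p = 0.000966), again with no overlap. In iBAT, Scd1 was 4959 to 9857 TPM (median 6652) in GC_WT and 2851 to 3947 TPM (median 3421) in FL_WT mice (log2 fold change -1.35, SE 0.198, adjusted p = 6.3e-05). FL_KO iBAT held 3732, 4586, 5156, 6207 and 9772 TPM against 9276 to 12236 TPM (median 9842) in GC_KO mice (log2 fold change -1.25, SE 0.21, adjusted p = 0.000103), and 1 FL_KO mouse reached the ground range.

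Elovl6, the elongase, passed the test in both genotypes in iBAT and in Nrf2-KO mice in eWAT and liver. In iBAT it was 174 to 241 TPM (median 184) in GC_WT and 60.0 to 126 TPM (median 77.6) in FL_WT mice (log2 fold change -1.53, SE 0.17, adjusted p = 2.37e-06). It was 213 to 274 TPM (median 240.5) in GC_KO and 65.3, 72.6, 84.4, 101 and 138 TPM in FL_KO mice (log2 fold change -1.83, SE 0.183, adjusted p = 1.57e-07), and no flight mouse overlapped its ground group. Levels in eWAT were far lower, 4.79 to 14.3 TPM (median 8.17) in GC_WT and 5.0 to 7.3 TPM (median 6.33) in FL_WT mice (log2 fold change -0.60, adjusted p = 0.23). The same depot held 8.49 to 50.8 TPM (median 21.4) in GC_KO and 5.71, 7.02, 7.58, 7.71 and 10.5 TPM in FL_KO mice (log2 fold change -1.67, adjusted p = 0.00377). In liver, Elovl6 was 30.8 to 50.7 TPM (median 37.2) in GC_WT and 14.4 to 34.0 TPM (median 24.6) in FL_WT mice (log2 fold change -0.65, adjusted p = 0.122). Livers of Nrf2-KO mice had 25.8 to 52.1 TPM (median 44.0) in GC_KO and 10.01, 14.1, 19.2, 21.8 and 31.8 TPM in FL_KO mice (log2 fold change -1.26, adjusted p = 0.00413). Both tissues showed lower means in flight with overlapping groups.

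**Figure D2:**
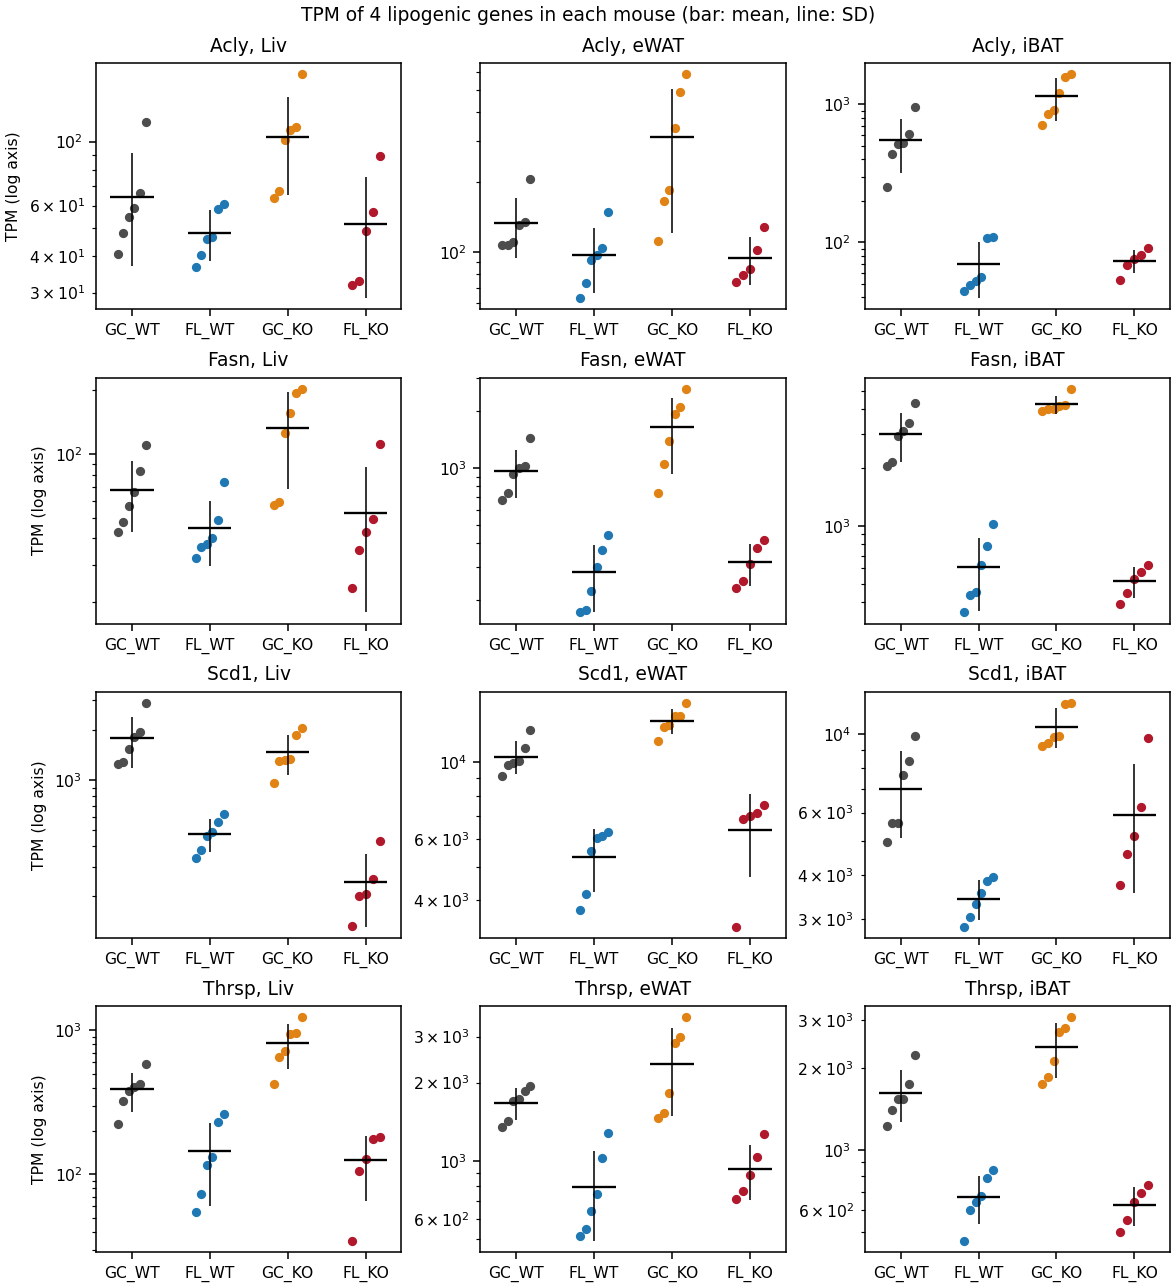
TPM of Acly, Fasn, Scd1 and Thrsp in each mouse (y axis, log scale) by group in iBAT, eWAT and liver; each point is a mouse, the bar is the mean and the line the SD. In iBAT the flight points of Fasn (355 to 1017 TPM) lie below all ground points (2028 to 5123 TPM), whereas in liver the Fasn points of flight and ground mice overlap.

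Srebf1 encodes SREBP-1, and its mRNA, which is counted over all transcript forms of the gene, was called in fewer comparisons than Fasn or Scd1. In eWAT it was lower in both genotypes, at 81.5 to 198 TPM (median 110.5) in FL_WT against 159 to 230.4 TPM (median 182) in GC_WT mice (log2 fold change -0.71, SE 0.176, adjusted p = 0.00968), with 1 FL_WT mouse inside the ground range. FL_KO eWAT held 112, 124, 129, 142 and 158 TPM against 169 to 328 TPM (median 224) in GC_KO mice, without overlap (log2 fold change -0.88, SE 0.187, adjusted p = 0.00655). In iBAT, the difference in WT mice did not pass, with 36.4 to 137 TPM (median 60.2) in GC_WT and 39.1 to 62.2 TPM (median 50.4) in FL_WT mice (log2 fold change -0.76, SE 0.314, adjusted p = 0.0937). That in Nrf2-KO mice did, with 47.1 to 159.5 TPM (median 96.5) and 23.1, 32.6, 53.5, 72.2 and 80.4 TPM (log2 fold change -1.44, SE 0.338, adjusted p = 0.00243). The iBAT groups overlapped in both genotypes. Liver Srebf1 was spread widely within each group and passed the test in neither comparison, with 36.9 to 139 TPM (median 71.0) in GC_WT and 34.8 to 96.7 TPM (median 42.9) in FL_WT mice (log2 fold change -0.60, SE 0.4, adjusted p = 0.494). GC_KO liver had 41.6 to 124 TPM (median 115) and FL_KO liver 32.3, 32.5, 64.0, 110.3 and 178 TPM (log2 fold change -0.37, SE 0.419, adjusted p = 0.752). The GC_WT livers fell into a lower set at 36.9 to 48.1 TPM (GC03, GC05, GC06) and a higher set at 93.9 to 139 TPM (GC07, GC08, GC10). The FL_KO mice with the highest values were FL09 and FL12.

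Mlxipl encodes ChREBP, again counted over its transcript forms together. It was called lower in flight in both fat depots of both genotypes and in neither liver comparison. In eWAT it ran from 58.0 to 82.2 TPM (median 73.3) in GC_WT to 33.9 to 53.5 TPM (median 45.0) in FL_WT mice, without overlap (log2 fold change -0.78, SE 0.164, adjusted p = 0.00281). It was 70.1 to 149 TPM (median 103) in GC_KO mice and 39.1, 47.4, 63.9, 66.0 and 72.5 TPM in FL_KO mice (log2 fold change -0.93, SE 0.174, adjusted p = 0.00261), where the highest flight mouse just passed the lowest ground mouse. In iBAT the groups overlapped, with 88.3 to 196 TPM (median 117) in GC_WT and 72.6 to 119 TPM (median 76.8) in FL_WT mice (log2 fold change -0.86, SE 0.206, adjusted p = 0.0052). In Nrf2-KO mice they held 112 to 265 TPM (median 194) in GC_KO and 69.7, 84.9, 99.7, 108 and 124 TPM in FL_KO mice (log2 fold change -1.42, SE 0.222, adjusted p = 4.68e-05). On the TPM scale the WT difference in iBAT was -0.52 and did not pass (adjusted p = 0.0538, limma). Hepatic Mlxipl was 154 to 184 TPM (median 172) in GC_WT and 158 to 221 TPM (median 202) in FL_WT mice, and 126 to 202 TPM (median 172) in GC_KO and 167, 179.5, 194, 203 and 225 TPM in FL_KO mice. Its log2 fold change was 0.14 (SE 0.0912) in WT and 0.03 (SE 0.0956) in Nrf2-KO liver, with adjusted p = 0.49 and 0.946.

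Thrsp encodes Spot 14, a small protein of lipogenic tissues induced by thyroid hormone and carbohydrate. In iBAT it was 1227 to 2238 TPM (median 1537) in GC_WT and 462 to 843 TPM (median 659) in FL_WT mice (2.97-fold lower, log2 fold change -1.57, SE 0.173, adjusted p = 2e-06). GC_KO mice held 1743 to 3065 TPM (median 2422) and FL_KO mice 499, 553, 643, 696 and 745 TPM (5.12-fold lower, log2 fold change -2.36, SE 0.19, adjusted p = 8.08e-09). In eWAT, Thrsp was 1352 to 1946 TPM (median 1714) in GC_WT and 516 to 1277 TPM (median 696) in FL_WT mice (log2 fold change -1.16, adjusted p = 0.00291). Nrf2-KO eWAT held 1465 to 3556 TPM (median 2327) in GC_KO and 712, 767, 881, 1036 and 1266 TPM in FL_KO mice (log2 fold change -1.34, adjusted p = 0.00344). Flight and ground mice did not overlap in either fat depot or genotype. In liver, GC_KO mice had 421 to 1230.0 TPM (median 828) and FL_KO mice 34.4, 106, 128, 176 and 183 TPM, 7.17-fold lower and without overlap (log2 fold change -2.84, SE 0.456, adjusted p = 0.000834). WT livers overlapped, with 223 to 584 TPM (median 389.5) in GC_WT and 55.2 to 262 TPM (median 124) in FL_WT mice (log2 fold change -1.47, SE 0.405, adjusted p = 0.0464). This last call lay close to the threshold and was lost in 14 of 23 fits that left out 1 mouse, with adjusted p up to 0.108.

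Pnpla3, a lipid-droplet acyltransferase and lipase whose mRNA follows feeding and SREBP-1c, was measured in fat and hardly at all in liver. In iBAT it was 44.0 to 198 TPM (median 94.1) in GC_WT and 24.4 to 58.2 TPM (median 32.4) in FL_WT mice (log2 fold change -1.86, SE 0.335, adjusted p = 0.000495). It was 105 to 233 TPM (median 170.5) in GC_KO and 13.5, 31.9, 50.6, 71.4 and 71.9 TPM in FL_KO mice, where the groups did not overlap (log2 fold change -2.30, SE 0.363, adjusted p = 5.34e-05). In eWAT, Pnpla3 was 118 to 288 TPM (median 227) in GC_WT and 71.8 to 197 TPM (median 108) in FL_WT mice, an overlapping but called difference (log2 fold change -0.91, SE 0.27, adjusted p = 0.0277). This call was lost without GC08 (-0.77), FL03 (-0.79), FL05 (-0.89) or FL08 (-0.85), with adjusted p up to 0.0719. FL_KO eWAT held 149, 162, 229, 261 and 292 TPM against 198 to 552 TPM (median 408) in GC_KO mice, which did not pass the test (log2 fold change -0.83, SE 0.283, adjusted p = 0.0745). Hepatic Pnpla3 stood between 0 and 1.3 TPM in all 23 livers and failed the filter on low counts, so that 9 of the 10 genes were tested there.

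Summed over the 10 genes, the pathway took 1.32% ± 0.334 (SD, n = 6) of all TPM in GC_WT iBAT and 0.534% ± 0.0422 (SD, n = 6) in FL_WT iBAT. In Nrf2-KO iBAT it took 1.97% ± 0.214 (SD, n = 6) in GC_KO against 0.77% ± 0.244 (SD, n = 5) in FL_KO mice. In eWAT the shares were 1.39% ± 0.16 (SD, n = 6) in GC_WT and 0.695% ± 0.13 (SD, n = 6) in FL_WT mice. They were 1.85% ± 0.234 (SD, n = 6) in GC_KO and 0.835% ± 0.194 (SD, n = 5) in FL_KO mice. In liver they were 0.264% ± 0.0655 (SD, n = 6), 0.102% ± 0.0155 (SD, n = 6), 0.289% ± 0.0597 (SD, n = 6) and 0.0806% ± 0.024 (SD, n = 5) in the same order. In each of the 3 tissues every flight mouse was below every ground mouse of its genotype. The sum is weighted to the most abundant gene, Scd1, with means of 10360.1 TPM in eWAT, 7014 TPM in iBAT and 1789.7 TPM in liver of GC_WT mice. In liver, Fasn, Acly, Acaca, Elovl6, Srebf1 and Mlxipl each overlapped between flight and ground mice in both genotypes.

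Across the 9 tissues of GC_WT mice (mean ± SD, n = 6, and n = 3 in kidney and MdB), 5 genes were highest in iBAT, 4 in eWAT and 1, Mlxipl, in liver. After the TPM were rescaled by TMM factors across tissues, 8 were highest in iBAT, 1 in eWAT and 1 in liver, since Scd1, Thrsp and Pnpla3 moved from eWAT to iBAT. The order of levels is a description with no test. Fasn stood at 2976 ± 842 TPM in iBAT and 969 ± 273 TPM in eWAT. It was 74.2 ± 8.77 TPM in Cbr, 68.0 ± 16.4 TPM in TpB and 67.8 ± 25.1 TPM in liver, which overlapped each other. Below these came 40.4 ± 2.71 TPM in spleen and 39.7 ± 2.71 TPM in thymus, which overlapped as well, and at 19.0 ± 1.16 TPM in MdB and 14.8 ± 1.73 TPM in kidney. The liver, usually regarded as a main lipogenic organ, ranked number 5 for Fasn in TPM and number 3 after TMM rescaling. Scd1 was 10360.1 ± 1135 TPM in eWAT and 7014 ± 1925 TPM in iBAT, with overlapping ranges, 1789.7 ± 610.3 TPM in liver and between 22.2 and 262 TPM on average in the other 6 tissues. Acly ranged from 552 ± 234 TPM in iBAT to 42.4 ± 0.944 TPM in MdB, and all neighbours between eWAT (132 ± 38.3 TPM) and thymus (63.4 ± 3.72 TPM) overlapped. Acaca was 284 ± 59.4 TPM in iBAT, overlapping with 164 ± 35.0 TPM in eWAT, and between 5.07 and 23.4 TPM elsewhere. Acacb ranged from 286 ± 53.9 TPM in iBAT and 142 ± 30.9 TPM in eWAT to 0.988 ± 0.245 TPM in thymus. Elovl6 was 191 ± 25.0 TPM in iBAT, 38.3 ± 7.5 TPM in liver and 8.77 ± 3.52 TPM in eWAT, where it ranked below Cbr and TpB. Srebf1 was 187 ± 25.9 TPM in eWAT, 76.9 ± 42.0 TPM in liver and 71.7 ± 37.7 TPM in iBAT, the last 2 overlapping, and down to 14.1 ± 3.45 TPM in kidney. Mlxipl was 169.9 ± 12.9 TPM in liver, 127 ± 42.0 TPM in iBAT and 110.4 ± 2.35 TPM in kidney, each overlapping with the next, against 71.6 ± 9.94 TPM in eWAT and at most 1.31 TPM in Cbr, MdB, spleen and thymus. Thrsp was 1667 ± 233 TPM in eWAT, overlapping with 1614 ± 349.7 TPM in iBAT, and 389 ± 119 TPM in liver. Pnpla3 was 205 ± 69.4 TPM in eWAT, overlapping with 107 ± 52.7 TPM in iBAT, and 0.228 ± 0.194 TPM in liver.

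**Figure D3:**
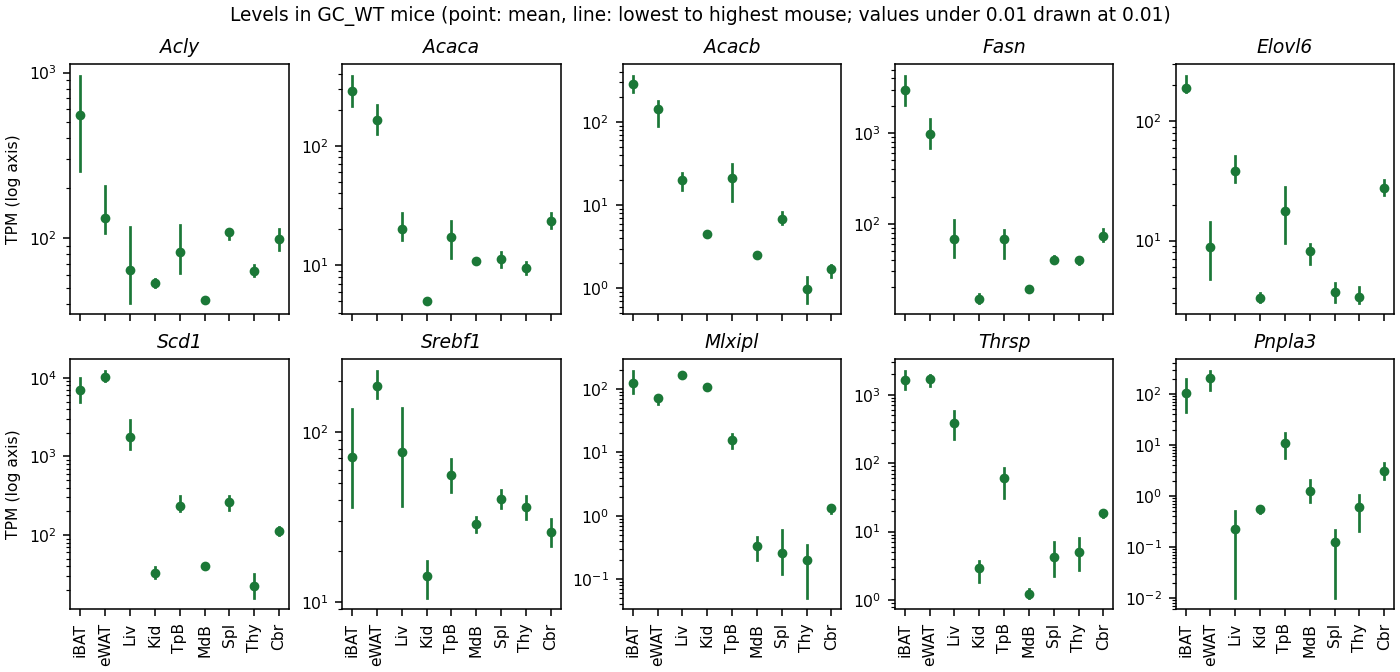
Level of each of the 10 genes in 9 tissues of GC_WT mice (TPM, log axis); the point is the mean and the line runs from the lowest to the highest mouse (6 mice, 3 in kidney and MdB). Fat depots lead for 9 genes, Mlxipl is highest in liver (169.9 TPM), and Pnpla3 is near 0 in liver (0.228 TPM).

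The genotypes were compared on the ground and in flight. These comparisons share their ground or flight mice with the flight comparisons above. In iBAT on the ground, Acly was 2.23-fold higher in GC_KO than in GC_WT mice (log2 fold change 1.16, SE 0.283, adjusted p = 0.0309). Acaca was 1.62-fold higher (log2 fold change 0.69, SE 0.184, adjusted p = 0.0487) and Thrsp 1.56-fold higher (log2 fold change 0.64, SE 0.169, adjusted p = 0.0478). These were 3 of 10 genes, against 2.14% of all genes called in either direction. The fold changes of all 10 genes were above 0 there, for example Scd1 at 0.66 (adjusted p = 0.091) and Fasn at 0.61 (adjusted p = 0.191). An unadjusted p below 0.05 was reached by 9 of 10, against 1719 of all 13574 genes. The 3 calls were fragile, lost in 7 (Acly), 17 (Acaca) and 17 (Thrsp) of 23 fits without 1 mouse, with adjusted p up to 0.0941, 0.129 and 0.144. In eWAT, Elovl6 was 2.57-fold higher in GC_KO mice (log2 fold change 1.36, SE 0.307, adjusted p = 0.0165), 1 of 10 genes against 2.71% of all genes. This call was lost without GC11, the highest GC_KO mouse (1.02, adjusted p = 0.0527). In liver, Acacb was 1.56-fold higher in GC_KO mice without overlap (log2 fold change 0.64, SE 0.131, adjusted p = 0.00484), 1 of 9 genes against 2.64% of all genes.

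In flight, few of the genes separated the genotypes. No gene of the 10 was called between FL_KO and FL_WT mice in iBAT or eWAT by edgeR, where 1.50% and 1.10% of all genes were. Of the 10, 1 and 3 genes had an unadjusted p below 0.05, against 1585 of 13574 and 1644 of 15301 genes. DESeq2 called 1 (Scd1, higher in FL_KO iBAT) and 0. In liver, Scd1 was 2.1-fold lower in FL_KO than in FL_WT mice (log2 fold change -1.07, SE 0.24, adjusted p = 0.0102), 1 of 9 genes against 3.65% of all genes. Of the FL_KO livers, 4 of 5 were below every FL_WT mouse. The difference between the flight responses of the genotypes, tested as an interaction, passed for none of the genes in iBAT, eWAT or liver with edgeR, DESeq2 or limma. Over all genes 0.00% passed in iBAT, 0.00% in eWAT and 0.00% in liver with edgeR. The unadjusted p was below 0.05 for 5 genes in iBAT, 3 in eWAT and 3 in liver. Over all genes it was for 1127 of 13574, 1284 of 15301 and 542 of 13433. The interaction term in iBAT was -1.14 for Acly (SE 0.408, adjusted p = 0.387), -0.92 for Fasn (SE 0.316, adjusted p = 0.365) and -0.79 for Thrsp (SE 0.245, adjusted p = 0.296) on the log2 scale. A larger fall in Nrf2-KO mice was therefore not resolved with 5 or 6 mice a group.

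**Figure D4:**
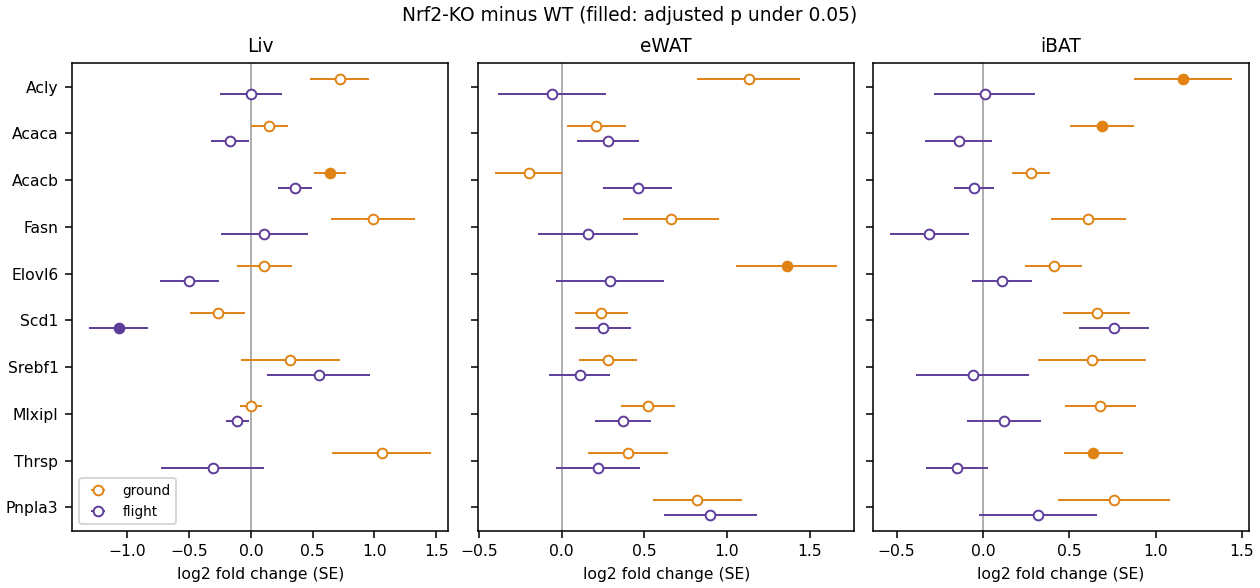
The log2 fold change of each gene (x axis, edgeR, with SE) in Nrf2-KO against WT mice, on the ground and in flight, in iBAT, eWAT and liver; filled points passed the test. On the ground the iBAT points all lie right of 0, up to 1.16 for Acly, and in flight Scd1 in liver is the only filled point, at -1.07.

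Mice of the same group also differed from each other, and the 2 regulators were set against Fasn over these differences (deviations of log2(TPM + 1) from the group mean, 23 mice a tissue, 6 relations, two-sided permutation tests). In liver, mice with more Srebf1 mRNA had more Fasn mRNA, with Pearson's r = 0.903 and Spearman's rho = 0.899 (permutation p = 1e-05 for both, the smallest that 100000 permutations can give, adjusted p = 6e-05). The relation held within each group, with r from 0.907 to 0.958 over 5 or 6 mice, and r was 0.866 without the 2 mice farthest from the median of Srebf1. FL12 was highest for both genes among FL_KO livers, GC08 among GC_WT livers and FL07 among FL_WT livers. The hepatic relation of Fasn with Mlxipl was weaker, with r = 0.458 and rho = 0.41 (permutation p = 0.0609 and 0.0829, adjusted p = 0.139 and 0.157), and r was 0.295 without the 2 farthest mice. In fat, no relation passed, with r = 0.189 (rho = 0.082) for Srebf1 and 0.378 (rho = 0.409) for Mlxipl in eWAT, and r = 0.327 (rho = 0.328) and 0.296 (rho = 0.305) in iBAT (permutation tests, adjusted p from 0.139 to 0.747). Without the 2 farthest mice these r were -0.107 and 0.35 in eWAT and 0.154 and 0.2 in iBAT. Both genes of a pair were read from the same library, so that they share its depth and RNA quality, and whether the relation of liver differs from that of fat was not tested. Mouse number also went with both genes in GC_WT liver. GC03, GC05 and GC06 held 36.9 to 48.1 TPM of Srebf1 and 43.0 to 57.2 TPM of Fasn. GC07, GC08 and GC10 held 93.9 to 139 TPM and 66.2 to 109.9 TPM. In FL_KO liver, FL01 and FL02 held 32.5 and 32.3 TPM of Srebf1 and 23.3 and 35.3 TPM of Fasn. FL09, FL11 and FL12 held 110.3, 64.0 and 178 TPM of Srebf1 and 49.2, 42.8 and 112 TPM of Fasn. In GC_KO liver Srebf1 was 41.6 and 50.55 TPM in GC01 and GC04, and 115 TPM in GC02. It was 121, 124 and 115 TPM in GC09, GC11 and GC12. In FL_WT liver Srebf1 did not rise with number (FL07 96.7 TPM, FL08 35.9 TPM). Whatever follows mouse number cannot be told apart from the relation of the 2 genes.

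**Figure D5:**
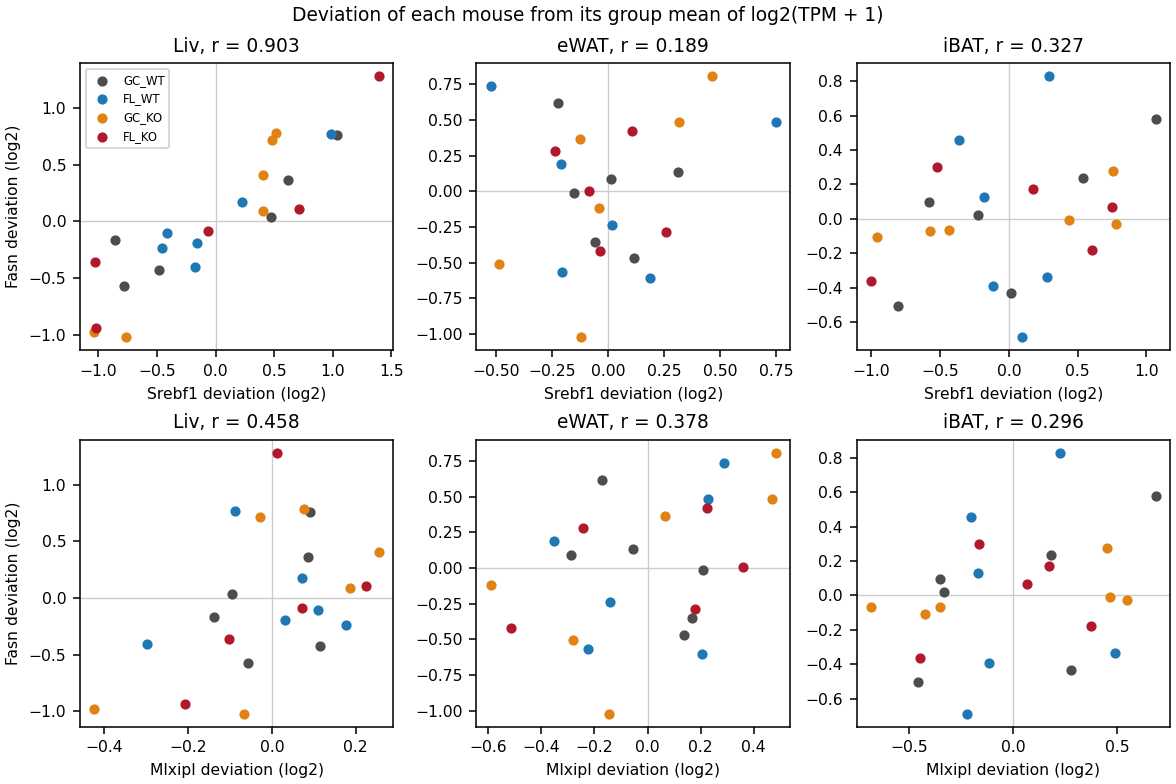
Deviation of Fasn (y axis) against that of Srebf1 or Mlxipl (x axis) from the group mean, on the log2(TPM + 1) scale, in liver, eWAT and iBAT; each point is 1 of 23 mice, marked by group. Only the liver panel of Srebf1 shows a tight line of points (r = 0.903), against r between 0.189 and 0.458 in the other panels.

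The members themselves moved together to different degrees, given here as the correlation of each gene with the mean deviation of the others over the same 23 mice, as a description. In liver it was 0.83 for Fasn, 0.825 for Acly, 0.796 for Srebf1, 0.787 for Acaca and 0.73 for Scd1, but -0.205 for Thrsp. In eWAT it was highest for Thrsp (0.85), Acly (0.824) and Fasn (0.816) and lowest for Acacb (0.23), with Scd1 and Srebf1 at 0.341. In iBAT it was highest for Pnpla3 (0.86) and Acly (0.842) and lowest for Scd1 (0.228). Pnpla3 and Acly went with mouse number in GC_KO iBAT, which cannot be told apart from their moving together. Of the other genes with a group mean of at least 5 TPM, those most like the members were Scd2 (0.905), Pgd (0.886), Tmem79 (0.877), Sorl1 (0.874) and Mindy2 (0.871) in iBAT. In eWAT they were Gpd2 (0.888), Pmvk (0.862), Tlcd1 (0.821), Lactb2 (0.813) and Nsdhl (0.802). In liver they were Tomm40l (0.858), Mrpl49 (0.847), Avpi1 (0.843), Dock6 (0.837) and Etnppl (0.837). Scd2 is a further stearoyl-CoA desaturase and Pgd the NADPH-forming 6-phosphogluconate dehydrogenase.

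The neighbouring steps of the pathway were read from lists. Of 12 genes that supply carbon and NADPH, 9 of 10 tested in iBAT were lower in FL_WT mice and 9 of 10 in FL_KO mice, with none higher, against 10.3% and 16.6% of all genes called lower (median log2 fold change -1.19 and -1.76). Me1, the NADPH-forming malic enzyme, changed by -1.56 (SE 0.111, adjusted p = 2.13e-08) in WT and -2.18 (SE 0.121, adjusted p = 1.41e-10) in Nrf2-KO iBAT. The mitochondrial citrate carrier Slc25a1 changed by -1.47 (SE 0.14, adjusted p = 3.12e-07) and -2.47 (SE 0.155, adjusted p = 4.96e-10). Acetyl-CoA synthetase Acss2 changed by -1.42 (SE 0.151, adjusted p = 1.29e-06) and -2.44 (SE 0.168, adjusted p = 1.09e-09). In eWAT, 4 of 12 were lower in WT and 5 of 12 in Nrf2-KO mice, against 6.33% and 3.86% of all genes. The gene G6pdx, which opens the pentose phosphate pathway, was higher in each, by 0.75 (SE 0.0948, adjusted p = 3.33e-05) and 0.67 (SE 0.0987, adjusted p = 0.000396). In liver, 0 of 11 passed in WT mice with edgeR (2 at an unadjusted p below 0.05, against 2247 of all 13433 genes). In Nrf2-KO liver 4 of 11 were lower, namely Pgd, Acss2, Pklr and Slc25a1, with log2 fold changes from -1.32 to -0.45. Of all genes, 1.91% and 2.02% were called lower in these comparisons. Between genotypes, hepatic Me1 was lower in Nrf2-KO mice on the ground, -0.94 (SE 0.125, adjusted p = 2.63e-05), and in flight, -1.08 (SE 0.133, adjusted p = 1.06e-05), where the log2 fold changes of Fasn were 0.99 and 0.11. In iBAT on the ground the citrate carrier was instead higher in GC_KO mice, 0.86 (SE 0.138, adjusted p = 0.000661), as were Acss2 (0.79) and Pgd (0.60).

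Among 13 other elongases and desaturases, 5 of 10 tested were lower in FL_WT and 6 of 10 in FL_KO iBAT, against the same 10.3% and 16.6% of all genes. They included Scd2 at -2.78 (SE 0.448, adjusted p = 0.000165) and -3.54 (SE 0.499, adjusted p = 1.43e-05) and Elovl3, an elongase of brown fat, at -1.23 (SE 0.259, adjusted p = 0.002) and -2.04 (SE 0.284, adjusted p = 1.27e-05). In eWAT 2 of 9 and 3 of 9 were lower (6.33% and 3.86% of all genes), Fads1 and Hacd2 in both genotypes. In liver none of 10 was called by edgeR in either genotype, against 1.91% and 2.02% of all genes called lower. An unadjusted p below 0.05 was reached by 3 in WT and 5 in Nrf2-KO mice, against 2247 and 2073 of all 13433 genes. Of 20 regulators in iBAT, 3 were lower and 1 higher in FL_WT mice, and 3 were lower and 4 higher in FL_KO mice. This is near the share over all genes, of which 10.3% and 16.6% were lower and 8.85% and 17.0% higher. Insig1, which retains SREBP precursors in the endoplasmic reticulum and is itself induced by SREBP, changed by -1.22 (SE 0.132, adjusted p = 1.67e-06) in WT and -1.47 (SE 0.141, adjusted p = 8.43e-08) in Nrf2-KO mice. Mid1ip1, the paralogue of Thrsp, changed by -1.90 (SE 0.466, adjusted p = 0.00626) and -2.40 (SE 0.505, adjusted p = 0.000942). Of the 20 regulators in liver, 1 was higher and 0 lower in FL_WT mice, and 2 were higher and 2 lower in FL_KO mice. Of all 13433 genes there, 206 were higher and 257 lower in WT and 176 higher and 272 lower in Nrf2-KO mice. Insig1 was also lower in Nrf2-KO liver, -1.55 (SE 0.331, adjusted p = 0.00937). Hepatic Pparg was higher in FL_WT than in GC_WT mice, 0.69 (SE 0.191, adjusted p = 0.0464), and lower in FL_KO than in FL_WT mice, -1.36 (SE 0.209, adjusted p = 0.000211). Between these flight genotypes 1 of 20 regulators was called, against 3.65% of all genes. Of 8 genes of triglyceride assembly, 4 of 8 were lower in FL_WT and 5 of 8 in FL_KO iBAT, and 1 was higher in each, beside the same shares of all genes. Acsl5, an acyl-CoA synthetase, changed by -1.57 (SE 0.279, adjusted p = 0.000424) and -2.34 (SE 0.306, adjusted p = 5.76e-06). In eWAT 2 of 8 and 3 of 8 were lower, against 6.33% and 3.86% of all genes. In liver they were 0 of 7 in WT (0 at an unadjusted p below 0.05) and 1 of 7 in Nrf2-KO mice. Of all genes in liver, 1.91% and 2.02% were called lower. The lists were drawn up with results of these mice known, and their counts stand as descriptions.

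In the other tissues few of the 10 genes were called. In kidney (9 tested, 3 mice a group) 2.59% of all genes were called in at least 1 of the 5 comparisons, 1.61% between the ground genotypes and 0.159% in either direction between FL_KO and GC_KO mice. Scd1 was higher in GC_KO than in GC_WT kidney, 61.4, 76.1 and 166 TPM against 28.6, 29.4 and 38.9 TPM (log2 fold change 1.63, SE 0.299, adjusted p = 0.012). Every GC_KO mouse was above every GC_WT mouse, and without GC02, the highest, the log2 fold change was 1.08. Fasn was higher there too, 19.4, 21.2 and 26.3 TPM against 13.5, 14.2 and 16.8 TPM (log2 fold change 0.58, SE 0.102, adjusted p = 0.00874). Renal Elovl6 was 4.45, 4.96 and 5.51 TPM against 3.05, 3.21 and 3.67 TPM (log2 fold change 0.56, SE 0.109, adjusted p = 0.0181), and none of the 3 pairs of groups overlapped. The share of all genes without overlap between these groups of 3 mice was not taken. The 3 renal genotype calls depended on single mice, since without GC06 or GC07, both GC_WT mice, none of the 3 passed (adjusted p up to 0.107). Elovl6 was also lost without GC02 (0.55, adjusted p = 0.0528) or GC12 (0.51, adjusted p = 0.0943). Renal Fasn was lower in FL_KO (14.7, 15.0 and 16.9 TPM) than in GC_KO mice (log2 fold change -0.60, SE 0.102, adjusted p = 0.0435), without overlap but lost in 11 of 12 fits without 1 mouse, with adjusted p up to 0.194. In spleen (8 tested), 4.03% of all genes were called in at least 1 comparison and 1.16% between the ground genotypes. Scd1 was lower in GC_KO (178 to 209 TPM, median 184) than in GC_WT mice (210.3 to 313 TPM, median 258), with no overlap (log2 fold change -0.46, SE 0.0755, adjusted p = 0.000743).

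Thymus was the tissue with the most calls over all genes, 44.8% in at least 1 comparison, 22.8% between FL_WT and GC_WT mice and 38.2% between FL_KO and GC_KO mice. In each genotype 3 of the 10 genes were called, which is near that background. In FL_WT thymus, Acacb (log2 fold change 0.41, SE 0.133, adjusted p = 0.0287) and Fasn (log2 fold change 0.26, SE 0.0813, adjusted p = 0.023) were higher and Acly was lower (log2 fold change -0.18, SE 0.0593, adjusted p = 0.0272), from 59.4 to 69.2 TPM (median 62.8) to 61.2 to 74.5 TPM (median 64.5). The direction of Acly turned with the scaling, to 0.04 on the TPM scale with limma, where the median gene was 0.18 higher in FL_WT mice. The calls over all genes went from 1925 higher and 1796 lower with edgeR (16308 genes) to 3923 higher and 237 lower with limma (10158 genes). In FL_KO thymus, Acly (log2 fold change -0.33, SE 0.0627, adjusted p = 0.000205), Srebf1 (log2 fold change -0.37, SE 0.0921, adjusted p = 0.00244) and Thrsp (log2 fold change -0.86, SE 0.284, adjusted p = 0.0194) were lower. None of the 3 passed on the TPM scale with limma, where calls over all genes went from 3151 higher and 3082 lower to 3429 higher and 301 lower (median shift 0.16). Thymic levels ranged from 36.4 to 64.8 TPM for Fasn in WT mice, with every FL_WT mouse above every GC_WT mouse, and the call was lost in 7 of 23 fits without 1 mouse. In TpB, MdB and Cbr, where 0.231%, 0.299% and 0.977% of all genes were called in at least 1 comparison, none of the 10 genes was called by edgeR. Over the 5 comparisons the genes with an unadjusted p below 0.05 numbered at most 4 in TpB, 2 in MdB and 1 in Cbr. In TpB this was FL_KO against GC_KO (486 of all 18184 genes) and in MdB FL_KO against FL_WT (882 of 16361). In Cbr it was FL_KO against GC_KO (905 of 16382) and GC_KO against GC_WT (1518 of 16382). DESeq2 called 1 in TpB and 0 in MdB and Cbr.

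In the tissues outside iBAT, eWAT and liver the summed share of the 10 genes stayed between 0.0118% and 0.104% of all TPM in every mouse, against 0.0636% to 2.35% in those 3 tissues.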

How the data were processed

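Gene expression was measured by RNA-seq in 192 samples, of which 184 entered the tests after flight mouse 04 was left out. Libraries were strand-specific and made from poly(A) RNA, or in thymus from total RNA depleted of rRNA, and were read for 76 cycles. Per the labels, the authors aligned reads to mm10 with STAR (2.6.1) and quantified genes with RSEM (1.3.1), and the deposited tables hold 54752 genes, with expected counts and TPM, a level per transcript length and per library. An FPKM table (192 columns) was not used. Samples were grouped by the condition and genotype in their labels.

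Expected counts were rounded and tested within each tissue by edgeR (4.0.16, R 4.3.3) quasi-likelihood fits of the 4 groups, with TMM factors, the filterByExpr filter and Benjamini-Hochberg adjustment over all genes tested. The fits and the permutation test were tested on simulated data. Levels are given in TPM without a test. Relations between genes used log2(TPM + 1). The tests were repeated with limma (3.58.1) on log2(TPM + 0.1) and log2(TPM + 1), with DESeq2 (1.42.0), RLE factors, no filter, only the groups of a contrast, flight mouse 04 kept, a replicate block, and each mouse left out. In TpB, the library number range was also fitted as a block. Among tissues with 5 or 6 same-numbered pairs, the pairing check found every pair to deviate together (r above 0.1) only in Nrf2-KO liver (r from 0.301 to 0.496, 5 pairs), although these are different animals. In Nrf2-KO eWAT, iBAT and TpB 4 of 5 pairs did so, and in WT liver 4 of 6. Kidney and MdB have at most 2 pairs a genotype, too few for the check.

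All 10 genes are named. Of each pathway list at most 4 called genes per comparison were eligible, by the smallest adjusted p, and the 5 genes most like the 10 by r in each tissue. The genes and lists were chosen with earlier results of these data known.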

Additional observations from a re-analysis of the deposited data

Results flagged for a closer look

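In 120 groups of 5 or 6 mice in liver, eWAT and iBAT, 1 mouse stood apart from the rest of its group in 8. Chance gives about 1 in 20, and 8 is near that rate. Genes of the same mouse are not independent. The number given is the gap to the next mouse as a share of the range of the group. In liver, GC08 was high for Acly among GC_WT mice (117 TPM against 66.12 TPM for the next mouse, 0.666), and FL07 was high for Srebf1 among FL_WT mice (96.73 against 56.75 TPM, 0.646). In eWAT, GC05 was high for Acly among GC_WT mice (207 against 134 TPM, 0.73), GC11 was high for Elovl6 among GC_KO mice (50.76 against 24.27 TPM, 0.627), and FL02 was low for Scd1 among FL_KO mice (3359.6 against 6870.5 TPM, 0.839). In iBAT, GC11 was high among GC_KO mice for Fasn (5123 against 4212 TPM, 0.765) and Acacb (371 against 329 TPM, 0.667), and GC10 was high for Elovl6 among GC_WT mice (241 against 187 TPM, 0.806). GC11 appears 3 times, and without it the call of Elovl6 between the ground genotypes in eWAT was lost (1.02, adjusted p = 0.0527).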

How the results depend on the processing

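The counts of genes called in the flight comparisons of iBAT, eWAT and liver stayed within 1.5 times under DESeq2, limma on either pseudocount, RLE factors, no filter, flight mouse 04 kept and the replicate block, with iBAT 7 to 10, eWAT 8 to 9 and liver 2 to 3 (WT) and 7 (Nrf2-KO). The exception was Nrf2-KO liver with only the groups of the contrast, where 4 were called, since Fasn, Acaca and Acly no longer passed (adjusted p from 0.0699 to 0.124). Between the ground genotypes, DESeq2 called 4 in eWAT and 5 in iBAT, no filter 1 in iBAT, and the contrast's own groups 0 in eWAT and 5 in iBAT. DESeq2 called 1 between FL_KO and FL_WT mice in iBAT, kidney and spleen, as did no filter and the contrast's own groups in kidney, and 1 between FL_KO and GC_KO mice in TpB. For FL_KO against GC_KO kidney the count was 2 with DESeq2, 3 without a filter, and 0 with limma (both pseudocounts) or the contrast's own groups. In thymus limma gave 1 (WT flight) and 0 (Nrf2-KO flight) with both pseudocounts, and Acly turned to 0.04 in WT thymus with each of them. In eWAT, r of Fasn with Srebf1 turned to -0.107 without the 2 farthest mice. Apart from these uses of fewer samples, the cause was not tested.

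Leaving out each mouse in turn gave counts between ground genotypes of 1 to 2 in liver, 0 to 3 in eWAT, 0 to 4 in iBAT, 0 to 3 in kidney and 0 to 1 in thymus. For FL_KO against FL_WT mice they were 0 to 1 in iBAT, kidney and spleen. For FL_KO against GC_KO mice they were 0 to 3 in kidney, 2 to 5 in thymus and 0 to 1 in TpB, and for FL_WT against GC_WT thymus 0 to 3. Where a group is left with 1 mouse (FL_KO in MdB), that mouse is assumed to vary like the other groups.

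The replicate block joins different animals that share a number. In GC_WT iBAT, Srebf1 rose with that number, from 36.4 TPM in GC03 to 137 TPM in GC10. In GC_KO iBAT it was 47.1 to 68.05 TPM in GC01 to GC04 and 125 to 159.5 TPM in GC09 to GC12. FL03 to FL06 held 39.1 to 46.8 TPM and FL07 to FL10 54.1 to 62.2 TPM in FL_WT iBAT. FL01 and FL02 held 32.6 and 23.1 TPM, and FL09 to FL12 53.5 to 80.4 TPM, in FL_KO iBAT. Acly, Fasn, Mlxipl, Thrsp and Pnpla3 were split by number in GC_KO iBAT too, while Acaca, Acacb, Scd1 and Elovl6 were not. What the number stands for was not tested. The block left the 7 calls in Nrf2-KO liver as they were. It added Pnpla3 in FL_KO eWAT (-0.94, adjusted p = 0.0381, 9 calls) and Srebf1 in FL_WT iBAT (-0.66, adjusted p = 0.00583, 10 calls). It also added Acaca in FL_KO thymus (4 calls) and removed Acacb in FL_WT thymus (0.42, adjusted p = 0.0508, 2 calls). It changed no other call of the 10 genes in the flight comparisons. No paired analysis was possible in kidney and MdB because too few numbers are shared. Levels in TPM compare tissues of unlike composition: after rescaling by TMM factors, 66 of 90 group means across tissues moved by more than 1 SD. In this order Scd1, Thrsp and Pnpla3 moved from eWAT to iBAT as the highest tissue, and liver from number 5 to number 3 for Fasn. Kidney and MdB hold 3 mice a group, and the thymus libraries are the shallowest; whether depth limited any call was not tested.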

Other observations

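Flight mouse 04, the FL_KO mouse with an intestinal haemorrhage, was set beside the other FL_KO mice. In iBAT 7 of the 10 genes were below the range of the other 5 mice, in eWAT 7 were below and 1, Scd1, was above, and in liver 4 were below, whereas in thymus 7 were above and 1 below. In spleen 3 were above and 2 below, in TpB 1 above and 1 below, and in MdB, with 2 other mice, 3 above and 3 below. In Cbr 9 genes were within the range and 1 was above. The share over all genes outside such a range was not taken. These counts describe 1 mouse and genes that vary together.

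The same mice were compared across tissues for Fasn and Scd1, in 6 relations chosen after their values had been seen (deviations from group means, 23 mice). Scd1 in liver and Scd1 in iBAT had Pearson's r = 0.465 (permutation p = 0.0844, adjusted p = 0.253) and Spearman's rho = 0.6 (permutation p = 0.00792, adjusted p = 0.0475), and r was 0.651 without the 2 mice farthest from the median. The other 5 relations had r from 0.222 to 0.403, and none passed after adjustment (adjusted p from 0.13 to 0.349 over both measures, permutation tests).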
